A study of Rattus norvegicus with 28 samples.

Results

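The heart muscle genes Myl7, Myh6, Mybpc3, Tnnt2, Csrp3, Actn2, Myoz2, Mb, Fabp3 and Sln were followed in RNA-seq libraries of rat lung. They were taken by symbol and are 10 of the 17002 genes in the deposited table, and all 10 passed the minimum level used for tests. They were chosen on their levels in these same libraries, so their levels and differences are a description and carry no test. The study set constant against variable tidal volumes in ventilated lungs, with or without injury, and sampled the right upper lobe of Sprague Dawley rats in 28 libraries of 8 groups.

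The groups are named as in the labels, where VCV means volume-controlled ventilation with constant tidal volumes and noisy means volume-controlled ventilation with variable tidal volumes. Uninjured lungs were control_blank without ventilation (3 libraries), healthy_VCV (4) and healthy_noisy (3). Acutely injured lungs were ventilated in acute_VCV (3) and acute_noisy (4), and no acutely injured group without ventilation was analysed here. Chronically injured lungs were control_chronic, sampled without ventilation 14 days after injury was induced (5), chronic_VCV (3) and chronic_noisy (3). The labels give neither the method of injury nor the time on the ventilator. They do not say whether each library is a separate animal, so p-values measure the spread between these libraries, which may be technical.

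In rodents, heart muscle extends from the left atrium along the pulmonary veins as a sleeve in the vein wall, so lung tissue can hold true cardiomyocytes. Their contractile unit, the sarcomere, is built from thick filaments of myosin, thin filaments of actin with the troponin complex, and Z-discs that anchor the thin filaments. Calcium released from the sarcoplasmic reticulum starts each contraction and is pumped back by SERCA, and the work is fuelled largely by fatty acid oxidation. Nothing in these data places a transcript in a vein wall rather than in attached heart tissue. Of the atrial markers, Nppa, the atrial natriuretic peptide, reached a deposited value of 282 (series 12) and Bmp10 9.92 (series 15). The atrial markers Kcnj3 and Kcna5 averaged 10.55 and 9.83 over all libraries, and Myl4 was not matched by symbol. Of the ventricular markers, Myh7, the beta myosin heavy chain, reached 138, Hey2 103 and Myl3 7.99, and Myl2 and Irx4 were not matched by symbol. The genes are therefore called heart muscle genes here, without a site. In bulk tissue, fewer cells of a type and less RNA per cell cannot be told apart.

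Values are deposited values, read counts divided by 1 scaling factor per library. Each title carries a library number whose leading digits are 12, 14, 15 or 18, called the number series below. The labels do not say what it stands for. Series 12 held control_blank and acute_VCV. Series 14 held chronic_noisy, the healthy_VCV libraries 025, 057 and 060 and the acute_noisy libraries 047 and 050. Series 15 held healthy_noisy, chronic_VCV, healthy_VCV 062 and acute_noisy 046 and 053. Series 18 held control_chronic. Only healthy_VCV and acute_noisy were spread over more than 1 series, both over 14 and 15, which allows a term for series 15 against series 14 to be estimated. In comparisons that cross into series 12 or 18, group and series cannot be told apart. Depth was 22277745 to 31923838 reads in series 12, 17855648 to 22967405 in series 14, 11280590 to 21510253 in series 15 and 6024093 to 17162741 in series 18.

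As a sum, the 10 genes were higher in every library of series 12 and 14 than in any library of series 15 and 18. Their summed deposited value was 5188 to 12793 in series 12, 1662 to 8140 in series 14, 85.4 to 1356 in series 15 and 316 to 473 in series 18. The lowest sum was that of chronic_VCV 073 and the highest that of acute_VCV 040.

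**Figure D1:**
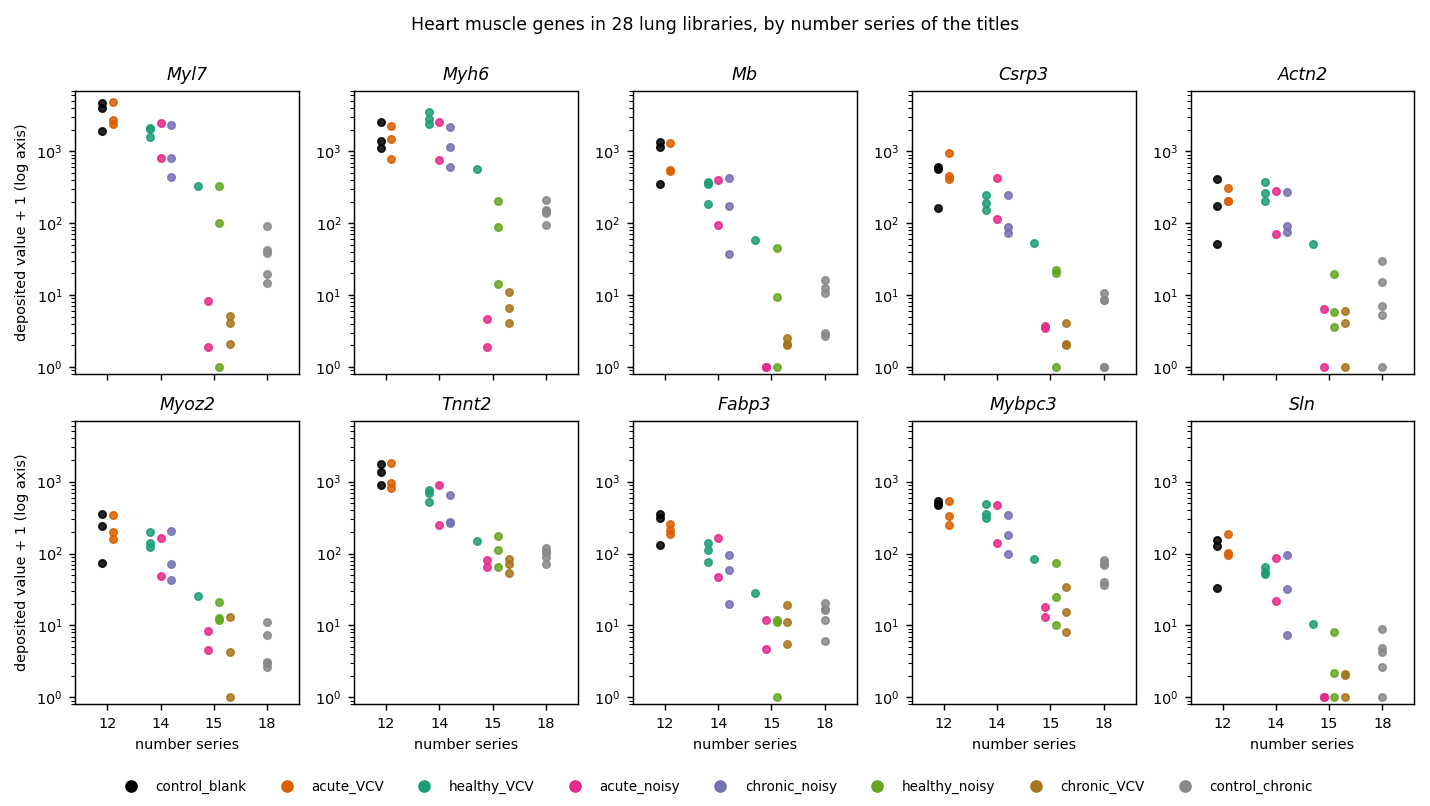
Deposited value plus 1 (log axis) of each of the 10 heart muscle genes in all 28 libraries, placed by number series and coloured by group; each point is 1 library. Myl7 lies between 433 and 4863 in series 12 and 14 and at 329 or below in series 15 and 18, while Tnnt2 does not fall below 53.2.

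Myl7, the regulatory myosin light chain of atrial muscle, had deposited values of 1909, 4066 and 4689 in control_blank and 4863, 2418 and 2768 in acute_VCV. In healthy_VCV it was 2055, 2127 and 1564 in series 14 and 329 in library 062. In acute_noisy it was 2462 and 802 in series 14, against 0.90 and 7.33 in series 15. These last 2 libraries, labelled as the same group as the first 2, held 1 and 6 reads of Myl7. Myl7 was 433, 2296 and 814 in chronic_noisy and 3.06, 4.06 and 1.11 in chronic_VCV. In healthy_noisy it was 0, 101.3 and 328. The value of 0, in library 029, allows up to 3.92, the value of 3 reads there. In control_chronic it was 41.3, 13.9, 36.9, 18.5 and 89.96, below every library of series 12 and 14.

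Myh6, the alpha myosin heavy chain, is the motor of the thick filament. Its deposited value was 1098, 1395 and 2591 in control_blank and 2225, 783 and 1499 in acute_VCV. It was 2865, 3494 and 2370 in the series 14 libraries of healthy_VCV and 573 in library 062. In acute_noisy, 2574 and 749 in series 14 stood against 0.90 and 3.67 in series 15. The gap within this group was the widest of the 10 genes. Myh6 was 607, 2215 and 1166 in chronic_noisy and 3.06, 10.1 and 5.55 in chronic_VCV, groups that do not overlap. In healthy_noisy it was 13.1, 88.0 and 200. In control_chronic it was 213, 137, 150, 145 and 92.1, all above the 3 chronic_VCV libraries. Myh6 lies beside Myh7, the near-identical beta heavy chain, in the RefSeq gene order, and how the authors assigned reads shared by such copies is not given in the sources used here, so both levels are uncertain.

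Mybpc3, the cardiac myosin-binding protein C of the thick filament, was detected in all 28 libraries. Its deposited value was 251 to 542 (median 486) in series 12, 96.6 to 486 (median 324) in series 14, 7.10 to 82.2 (median 17.1) in series 15 and 35.3 to 79.4 (median 67.4) in series 18. The lowest series 14 library, at 96.6, was near the highest series 15 library, at 82.2. Tnnt2, cardiac troponin T of the thin filament, varied least in relative terms. It was 807 to 1808 (median 1153) in series 12, 252 to 893 (median 578) in series 14, 53.2 to 173 (median 79.5) in series 15 and 69.9 to 116.98 (median 104) in series 18. It was the only member besides Mybpc3 that exceeded 3 reads in every library.

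The Z-disc members were Csrp3, the muscle LIM protein, Actn2, the sarcomeric alpha-actinin that crosslinks thin filaments, and Myoz2, or calsarcin-1, which binds alpha-actinin and calcineurin. Csrp3 had deposited values of 164, 561 and 598 in control_blank, 949, 450 and 409 in acute_VCV, and 190, 250, 153 and 52.1 in healthy_VCV. In series 15 it had a median of 2.71 and was at 3 reads or fewer in 6 of 9 libraries. Actn2 was 51.1, 174 and 415 in control_blank, so its lowest control library lay close to healthy_VCV 062 at 49.8. Its range was 70.0 to 371 in series 14, 0 to 49.8 in series 15 and 0 to 28.6 in series 18. Myoz2 was 73.8 to 356 in series 12, 42.4 to 202 in series 14, 0 to 24.5 in series 15 and 1.68 to 10.2 in series 18. These 3 genes were thus at 52.1 or below in each library of series 15 and 18.

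Promoter sequence is shown for the 2 members in which the binding motif of MEF2, a muscle transcription factor, was found. Whether it bears on the levels of the 10 genes was not tested. RefSeq promoters of build GRCr8 were at hand for 8 of the 10 members (9 windows of the 250 bases before a start site, searched on both strands). Some genes have several annotated starts, and the windows of Myl7 and Myh6 lie inside the span annotated for the gene. The MEF2 motif was found in 175 of 33465 such windows (0.523%) and in 2 of the 9 member windows. The window of Myoz2 is chr2:213852779-213853028 on the minus strand, printed 5′ to 3′ in the direction of the gene, with the motif in capitals 53 to 44 bases before the start.
Myoz2: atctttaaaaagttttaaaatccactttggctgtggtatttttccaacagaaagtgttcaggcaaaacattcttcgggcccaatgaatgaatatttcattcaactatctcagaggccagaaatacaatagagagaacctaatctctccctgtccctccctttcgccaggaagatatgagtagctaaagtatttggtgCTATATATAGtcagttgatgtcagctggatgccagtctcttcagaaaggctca
For Mybpc3 the 30 bases around the match, 109 to 100 bases before the start, are given, at chr3:97550942-97550971 on the plus strand.
Mybpc3: tggaatttgtCTATATTTAGcaggtggcta
The 6-base M-CAT motif CATTCC, bound by TEAD factors, was in the windows of Tnnt2 and Myh6 and in 12.1% of all windows. The GATA motif AGATAA was in that of Tnnt2 and in 10.3% of all windows. The E-box CANNTG was in all 9 member windows, but also in 65.5% of all windows, and the CArG box, known for serum response factor, was in 0 of 9 and in 1.5%. Matches are a description of letters and not of binding.

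Mb, myoglobin, stores oxygen in muscle, and Fabp3, the heart fatty acid-binding protein, carries fatty acids in the cytosol. Mb had deposited values of 349, 1154 and 1336 in control_blank and 1309, 532 and 541 in acute_VCV. In healthy_VCV it was 369, 348 and 187 in series 14 and 57.7 in library 062. It was 397 and 93.6 in the series 14 libraries of acute_noisy and 0 in both series 15 libraries, which allows up to 2.71 and 3.67 there. Mb was 36.1, 428 and 175 in chronic_noisy, and the lowest of these lay below healthy_VCV 062 and healthy_noisy 078 (44.0). Fabp3 was 129 to 358 in series 12, 19.0 to 163 in series 14, 0 to 27.6 in series 15 and 5.05 to 19.8 in series 18. Its series 14 range overlapped those of series 15 and 18 through chronic_noisy 075.

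Sln, sarcolipin, is a small membrane peptide that inhibits SERCA and is known from atrial muscle. Its deposited value was 32.4, 128 and 154 in control_blank, 186, 95.7 and 99.4 in acute_VCV, and 51.4, 64.8, 54.3 and 9.48 in healthy_VCV. It was 6.32, 93.4 and 31.0 in chronic_noisy. Sln was at 3 reads or fewer in 7 of 9 series 15 and 4 of 5 series 18 libraries, the most of any member. Mb and Csrp3 were at 3 reads or fewer in 9 libraries each, Actn2 and Myoz2 in 6, Myl7 in 4, and Myh6 and Fabp3 in 3, all of series 15 or 18. At such counts, levels among the low libraries could not be ordered at this depth.

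**Figure D2:**
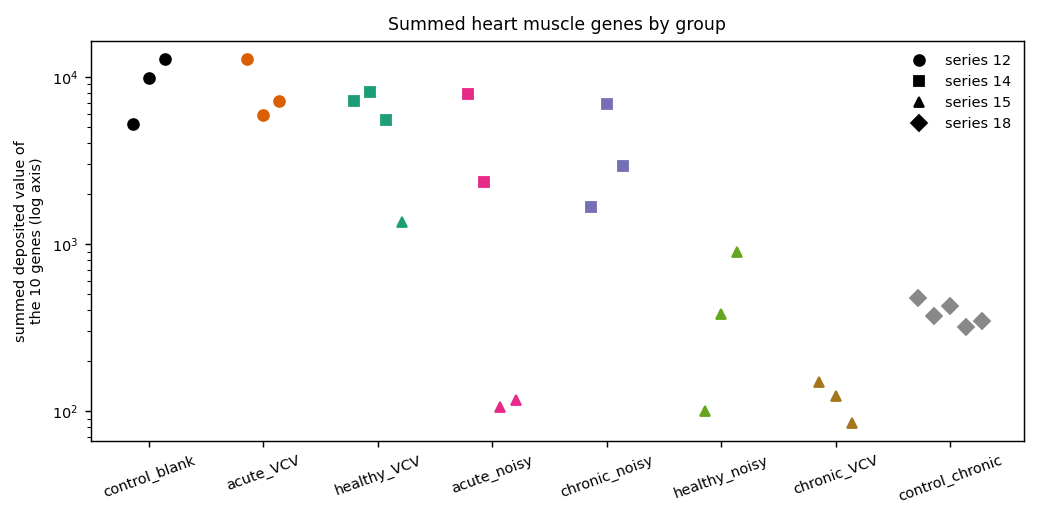
Summed deposited value of the 10 genes (log axis) in each group; each point is 1 library and its shape is the number series. In healthy_VCV and acute_noisy the series 15 libraries lie below the series 14 libraries, and acute_noisy spans 105.5 to 7907.

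The members also differed in their proportions. Of the summed deposited value, Myl7 made up a median of 38.4% in series 12, 28.4% in series 14, 3.31% in series 15 and 8.63% in series 18. Myh6 made up 18.8%, 38.1%, 8.26% and 36.7%. The share of Myh6 was 13.2% to 21.2% in series 12 and 32.1% to 42.9% in series 14, ranges that do not overlap. The share of Tnnt2 was a median of 13.7%, 9.95%, 57.9% and 25.2%. Within series 15 the Tnnt2 share ran from 11.1% in healthy_VCV 062 to 68.4% in acute_noisy 053. The ratio of Myh6 to Myl7 was 0.324 to 0.575 in series 12 and 0.934 to 1.64 in series 14. In control_chronic it was 1.02 to 9.86 (median 5.15), above every library of series 12 in each of its 5 libraries. The ratio of 9.86 rests on 7 reads of Myl7, that of 5.15 on 13 and that of 1.02 on 84. In series 15 Myl7 was at 3 reads or fewer in 4 of 9 libraries, so the shares there are uncertain. These ratios depend on gene length and are read only across libraries.

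**Figure D3:**
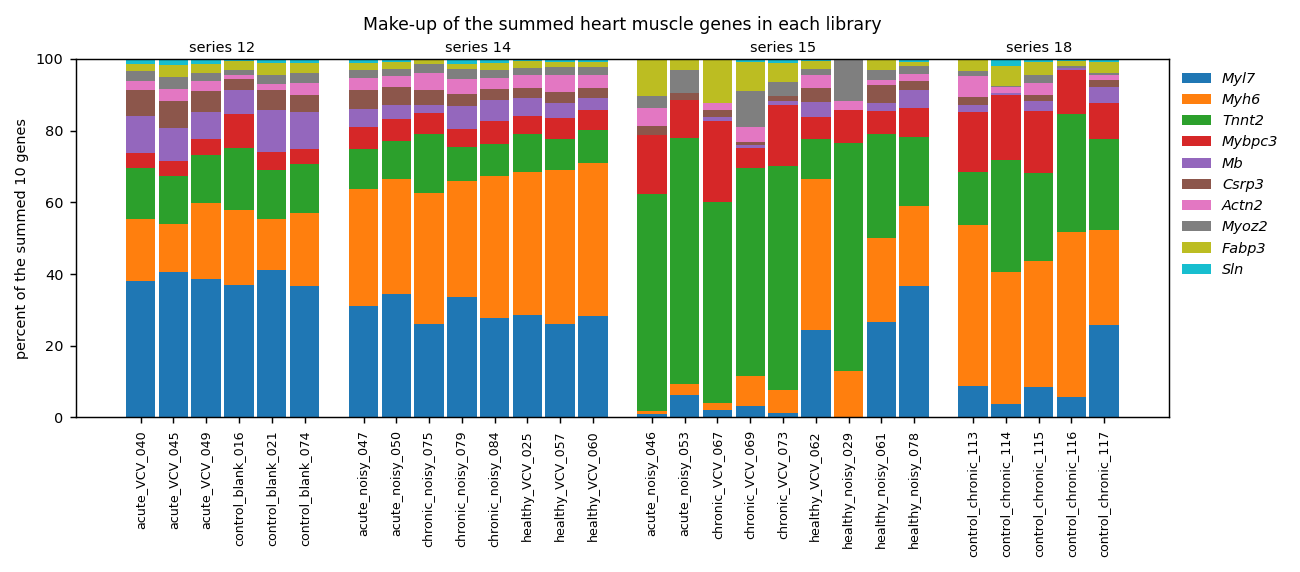
Share of each of the 10 genes in their summed deposited value (percent) in each library, ordered by number series; each bar is 1 library. Myl7 and Myh6 take most of each bar in series 12 and 14, and Tnnt2 takes up to 68.4% in series 15.

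Between series 12 and series 15, all 10 members did not overlap, with each series 12 library higher, beside 4.41% of the 14908 genes tested. The same held between series 12 and 18 for 10 members, beside 5.11%. Series 14 lay above series 15 without overlap for 7 members, beside 0.812%. Mb, Fabp3 and Sln overlapped. Series 14 lay above series 18 for 8 members, beside 15.3%, with Fabp3 and Sln overlapping. No member was separated between series 12 and 14 in either direction, where 8.77% and 12% of genes were, or between series 15 and 18, where 5.41% and 6.29% were. Each library of series 12 and of series 14 lay above each of series 15 and 18 for 12 genes (0.0805%), an arrangement picked after the values were seen. They were 7 members, Casq2, the calcium store protein of the reticulum, Ckm, muscle creatine kinase, Myh7, Hfe2, or hemojuvelin, and a row labelled CX6A2_RAT. That row carries a protein entry name for which the list symbol Cox6a2 found no match, and it is not counted among the list genes. The opposite arrangement was found for 14 genes and 0 members, among them Ptger1, a prostaglandin E receptor, at 43.1 to 180 in series 12, 52.2 to 156 in series 14, 236 to 742 in series 15 and 304 to 512 in series 18.

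Within the groups that held both series, the series 15 libraries were lower for all 10 members. In healthy_VCV the difference on the log2(deposited value + 1) scale was -1.87 for Csrp3 to -2.55 for Myoz2, from 3 libraries against 1. Library 062, with 21510253 reads, was sequenced more deeply than the 3 series 14 libraries of its group, at 17855648 to 19922417. In acute_noisy the difference was -2.72 for Tnnt2 to -8.87 for Myh6, from 2 libraries against 2. Here the series 15 libraries were the shallower, with 18537299 and 14133931 reads against 22967405 and 21149621. In a limma fit of these 8 libraries with group as a covariate, series 15 minus series 14 was -2.45 ± 0.38 (SE) for Tnnt2 to -6.06 ± 1.16 for Myh6, with a median of -4.18.

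Other heart muscle genes were taken from a list of 56 symbols in 5 roles, of which 40 were found and 31 tested with limma at an adjusted p of 0.05. The list was chosen with earlier results of these data known and marks the same muscle as the members. Its calls are therefore not independent of how the members were chosen. In the series fit above, 0 of 31 passed in either direction, beside 0.0335% of all genes lower and 0 higher. Their median difference was -1.07 against 0.00 for all genes. At an unadjusted p under 0.05, 18 were lower and 0 higher, and edgeR on recovered reads also called 0. Without healthy_VCV 062 the fit called 13 lower and 1 higher. With all 28 libraries in the fit, 7 were called lower. Shares of all genes at the unadjusted p and in these alternative fits are not given. These counts therefore cannot be set beside 0.0335%, and no excess is read from them.

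The group comparisons follow, of which several share control_blank or control_chronic and so are not independent. In acute_VCV against control_blank, both of series 12, the members lay on both sides of 0 and overlapped. The log2 difference was -0.50 ± 0.94 (SE) for Mybpc3 to 0.59 ± 1.41 for Actn2, with a median of -0.11, and 0 of 10 were separated, beside 20.7% of genes lower and 23.1% higher. These errors use 1 spread per gene shared by all 8 groups, acute_noisy with its gap between number series included. They do not measure the spread of the groups compared alone. The intervals they give are wide, so a moderate difference was not detectable in this fit. Of the other heart muscle genes 1 of 31 rose and 3 fell, beside 20.6% and 16.7% of all genes, with a median of -0.05. Actc1, cardiac alpha-actin, fell by 1.75 ± 0.68 (SE) on the log2 scale, from a mean of 3203 to 1107 (limma adjusted p = 0.044). Eno3, the muscle enolase, fell by 1.02 ± 0.34 (limma adjusted p = 0.021). Named after their values were seen, Xirp1, an actin-binding protein of the intercalated disc, rose by 2.80 ± 0.71 (limma adjusted p = 0.0036) and Hcn4, the pacemaker channel, fell by 1.52 ± 0.47 (limma adjusted p = 0.013). The count lower was 0 without acute_VCV 045 and 1 without acute_VCV 049.

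In healthy_VCV against control_blank, 8 members were lower and 2 higher, with differences of -2.07 ± 1.53 (SE) for Mb to 0.28 ± 1.55 for Myh6 and a median of -1.32. Only Tnnt2 was separated, 1 of 10 members beside 30% of genes lower. The other heart muscle genes moved both ways, 6 rising and 5 falling of 31 (29.3% and 28.1% of all genes), with a median of -0.21. Tnni3, cardiac troponin I, fell from a mean of 2662 to 628, by 2.33 ± 0.73 on the log2 scale (limma adjusted p = 0.0087), and Nppa fell by 3.59 ± 1.09 (limma adjusted p = 0.0072). Tbx5, a transcription factor of both heart and lung mesenchyme, rose by 1.71 ± 0.25 (limma adjusted p = 8.5e-06). Nebl, the Z-disc protein nebulette, rose by 1.27 ± 0.17 (limma adjusted p = 3.2e-06) and Cacna1c, the L-type calcium channel of heart and smooth muscle, by 1.17 ± 0.29 (limma adjusted p = 0.0018).

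In healthy_noisy against control_blank, series 15 against series 12, all 10 members were lower without overlap, beside 20.2% of genes. The log2 difference was -3.57 ± 0.68 (SE) for Tnnt2 to -6.76 ± 1.63 for Mb, with a median of -4.86. Of the other heart muscle genes 17 of 31 fell and 3 rose, beside 14.6% and 17.5% of all genes, with a median of -1.45 against 0.01. The sarcomere list gave 8 of 12 falling and 1 rising, calcium handling and excitation 4 of 9 falling, and muscle energy 4 of 5 falling. Ckm fell from a mean of 242 to 10.8, by 4.61 ± 1.20 (limma adjusted p = 0.0061), and Casq2 from 216 to 18.3, by 3.94 ± 0.76 (limma adjusted p = 0.00067). Tbx5 rose by 0.98 ± 0.27 (limma adjusted p = 0.0085).

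In acute_noisy against control_blank, where the first group holds libraries of series 14 and 15, the members ranged from -2.79 ± 0.64 (SE) for Tnnt2 to -5.87 ± 1.53 for Mb, with a median of -3.50. Only Mybpc3, 1 of 10, was separated, beside 22.6% of genes lower. Of 31 other heart muscle genes 14 fell and 6 rose, beside 28.4% and 31.3% of all genes, with a median of -1.61. All 5 muscle energy genes fell, led by Ckm at -2.96 ± 1.12 (limma adjusted p = 0.026), and Actc1 fell by 3.72 ± 0.63 (limma adjusted p = 3.9e-05). The count falling was 9 without control_blank 074 and 9 in a fit of these 2 groups alone.

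In control_chronic against control_blank, series 18 against series 12, all 10 members were lower without overlap, beside 10.3% of genes. The difference was -3.15 ± 0.85 (SE) for Mybpc3 to -6.86 ± 1.46 for Mb, with a median of -4.58. Of the other heart muscle genes 16 of 31 fell and 2 rose, beside 5.55% and 9.3% of all genes, with a median of -1.25 against 0.00. Tnnc1, cardiac troponin C, fell from a mean of 260 to 10.8, by 4.41 ± 0.58 (limma adjusted p = 0.00019). Smpx, a small muscle protein of the costamere, fell by 5.65 ± 1.06 (limma adjusted p = 0.0034). The genes that rose were Tbx5, by 0.97 ± 0.24 (limma adjusted p = 0.013), and Mef2c, by 1.22 ± 0.37 (limma adjusted p = 0.031). The count falling was 9 without control_blank 016, and 10 without control_chronic_113 and control_chronic_114, the shallowest libraries.

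Ventilated chronically injured lungs lay on either side of control_chronic. In chronic_VCV (series 15) all 10 members had lower means of log2(deposited value + 1), with differences of -0.26 ± 0.94 (SE) for Myoz2 to -4.43 ± 1.48 for Myh6, with a median of -1.18, and 4 (Mb, Mybpc3, Myl7 and Myh6) were separated, beside 12.2% of genes. Mb was 1 read in each chronic_VCV library and also 1 read in control_chronic_114 and control_chronic_116, so its order rests on the scaling of 1 read. Myoz2 had the higher deposited mean in chronic_VCV, 5.17 against 4.47, and its log2 difference turned to 0.35 with edgeR, 0.02 with a pseudocount of 10, 0.71 without chronic_VCV 067 and 0.06 without control_chronic_115. Of the other heart muscle genes 3 of 31 rose and 2 fell, beside 6.89% and 7.9%, with a median of 0.00. Casq2 fell by 2.27 ± 0.68 (limma adjusted p = 0.028) and Cox8b, a muscle subunit of cytochrome oxidase, by 1.39 ± 0.36 (limma adjusted p = 0.012). Nebl rose by 1.08 ± 0.16 (limma adjusted p = 0.00022), Corin, the enzyme that activates natriuretic peptides, by 1.31 ± 0.43 (limma adjusted p = 0.043) and Tnnc1 by 1.86 ± 0.58 (limma adjusted p = 0.034). Only 1 was called higher without chronic_VCV 067 or 073, or without control_chronic_115, control_chronic_116 or control_chronic_117.

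In chronic_noisy (series 14) against control_chronic all 10 members were higher, from 1.69 ± 0.85 (SE) for Mybpc3 to 4.95 ± 1.26 for Csrp3, with a median of 3.59. The groups were separated for 8 members, beside 22.4% of genes higher. Of the other heart muscle genes 10 of 31 rose and 0 fell, beside 19.1% and 18.1%, with a median of 0.73 against 0.00. Ckm rose from a mean of 5.87 to 98.5, by 4.09 ± 1.07 (limma adjusted p = 0.0055), Tnnc1 by 3.13 ± 0.58 (limma adjusted p = 0.00048) and Nppa by 3.34 ± 1.04 (limma adjusted p = 0.015). No gene of the list fell at an unadjusted p under 0.05 either, and edgeR called 11 higher and 0 lower. The count rising was 5 without chronic_noisy 079 and 5 without chronic_noisy 084.

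Variable against constant ventilation gave members of opposite sign in uninjured and chronically injured lungs. In healthy_noisy against healthy_VCV all 10 were lower, from -2.06 ± 0.64 (SE) for Tnnt2 to -5.25 ± 1.77 for Myl7, with a median of -4.05, and all but Tnnt2 (9) were separated, beside 20.2% of genes. In chronic_noisy against chronic_VCV all 10 were higher without overlap, beside 15.9% of genes, from 2.20 ± 0.99 for Fabp3 to 8.05 ± 1.89 for Myl7, with a median of 4.94. The number series ran opposite as well, since healthy_noisy and chronic_VCV were of series 15, and chronic_noisy and 3 of 4 healthy_VCV libraries of series 14. With the number series as a covariate, estimated from healthy_VCV and acute_noisy, the first difference was -0.22 to -1.77 (median -0.76) and the second -0.64 to 2.14 (median 0.87). For Myl7 these values were -0.81 and 2.14. The covariate assumes the same series shift in all groups. For the summed members, series 15 minus series 14 was -2.34 in healthy_VCV and -5.27 in acute_noisy on the log2 scale. Within series 15 alone, the first difference was -0.49 for Tnnt2 to -3.35 for Myl7, with a median of -2.64. That fit sets healthy_noisy against the single library healthy_VCV 062, which is assumed to vary like the others.

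In acute_noisy against acute_VCV all 10 members had lower means, from -2.50 ± 0.88 (SE) for Mybpc3 to -5.70 ± 1.53 for Mb, with a median of -3.92. The groups were separated for Mb, Sln and Fabp3, 3 of 10 members, beside 15% of genes. Here a covariate could not separate group from series, because acute_VCV was of series 12 alone and acute_noisy held no library of it. The term for series 15 against series 14 was not applied to this comparison. The series 14 libraries of acute_noisy had summed deposited values of 7907 and 2336 and the series 15 libraries 105.5 and 116.1, while acute_VCV had 12793, 5945 and 7145. Library 047 thus lay within the range of acute_VCV and the other 3 libraries below it.

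**Figure D4:**
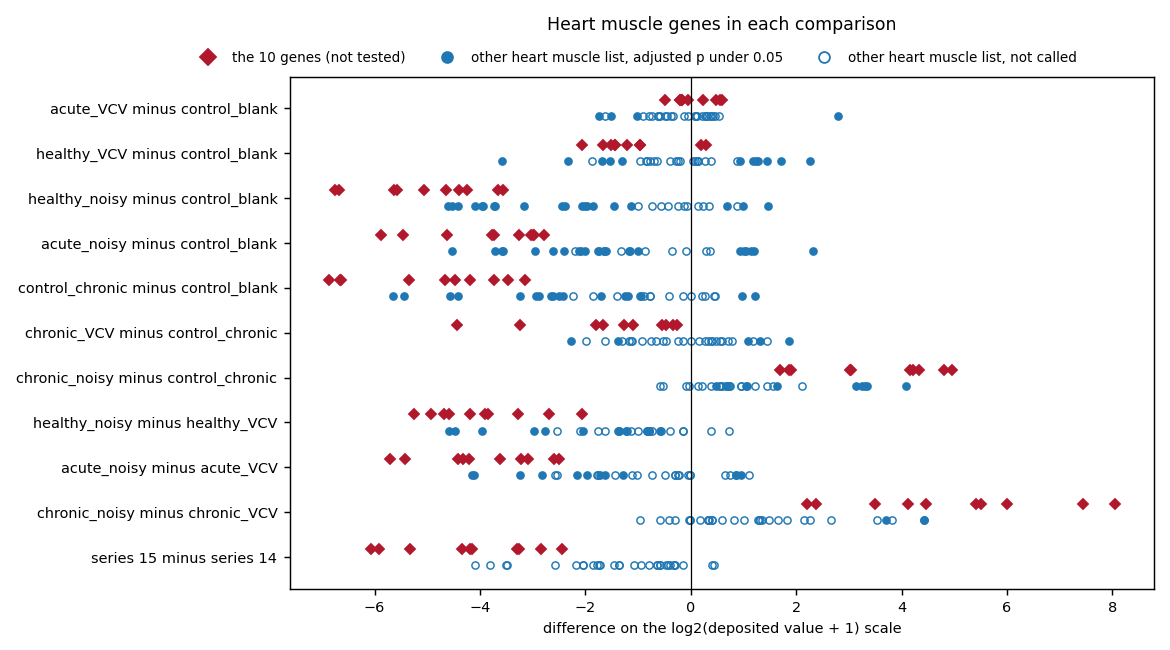
Difference on the log2(deposited value + 1) scale in each comparison, for the 10 genes (diamonds, not tested) and the 31 other heart muscle genes tested with limma (circles, filled where the adjusted p is under 0.05). The 10 genes lie between -0.50 and 0.59 in acute_VCV minus control_blank, below 0 in healthy_noisy minus healthy_VCV and above 0 in chronic_noisy minus chronic_VCV.

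The other heart muscle genes were tested in the same comparisons of ventilation mode. Here and in the next paragraph, shares of all genes belong to the reported limma fit at the adjusted threshold. Counts at an unadjusted p, with edgeR or in other fits have no such share beside them, and no excess is read from them. In healthy_noisy against healthy_VCV 10 of 31 fell and 0 rose, beside 6.01% and 4.31% of all genes, with a median of -1.13 (21 lower and 0 higher at an unadjusted p under 0.05, and 13 lower and 0 higher with edgeR). Myh7 fell from a mean of 79.7 to 3.75, by 4.59 ± 1.09 (limma adjusted p = 0.027), and Casq2 fell by 2.98 ± 0.71 (limma adjusted p = 0.028). The count was 0 without any 1 of healthy_VCV 025, 057 or 060 or healthy_noisy 029 or 061, 0 with the number series as a covariate (3 lower unadjusted), 0 within series 15 (4 lower unadjusted), and 21 in a fit of these 2 groups alone.

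In acute_noisy against acute_VCV 9 of 31 fell and 2 rose, beside 12.3% and 11.9%, with a median of -1.02. Tnni3 fell by 2.82 ± 0.73 (limma adjusted p = 0.0092) and Nppa, from a mean of 112 to 3.83, fell by 4.11 ± 1.09 (limma adjusted p = 0.011), while Nebl rose by 0.86 ± 0.17 (limma adjusted p = 0.0024). The atrial markers found, Nppa among them, summed to 15, 51.6 and 291 in the acute_VCV libraries. The Nppa mean of 112 thus rests mostly on 1 library. The count falling was 0 without acute_VCV 040, 15 without acute_noisy 047, 4 without acute_noisy 050, 5 without acute_noisy 046, and 0 in a fit of these 2 groups alone (8 lower unadjusted). In chronic_noisy against chronic_VCV 3 of 31 rose and 0 fell, beside 0.563% and 1.86%, with a median of 1.01 (13 higher and 0 lower at an unadjusted p under 0.05). They were Casq2, by 3.71 ± 0.76 (limma adjusted p = 0.018), Smpx, by 4.42 ± 1.19 (limma adjusted p = 0.048), and Xirp2, a partner of alpha-actinin, by 4.43 ± 1.06 (limma adjusted p = 0.031). The count was 0 without chronic_noisy 079 or 084 or chronic_VCV 067, 1 without chronic_VCV 073, 1 with edgeR, and 0 with the number series as a covariate (1 higher unadjusted).

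By role, the other heart muscle genes did not all follow the 10. Over the 4 number series the sarcomere list of 14 genes summed to a median deposited value of 6192, 3484, 1341 and 1384 in series 12, 14, 15 and 18. Tnni3 had means of 2195, 686, 162 and 355 and Actc1 of 2155, 899, 264 and 438 in that order. Nebl instead was lowest in series 12 and 18, with medians of 371 and 356, and highest in series 14, at 869. In calcium handling, Casq2 had medians of 197, 134, 12.2 and 30.3, and Hrc of 104, 79.8, 23.2 and 20.4. Atp2a2, the SERCA pump of many tissues, had medians of 5442, 5578, 4355 and 3384. Of the transcription factors, Tbx5 had means of 119, 318, 278 and 222, and Gata4 ranged from 0 to 154 with all 4 series overlapping. Nppa was 7.19 to 282 in series 12, 0 to 37.4 in series 14, 0 to 3.07 in series 15 and 0 to 4.28 in series 18.

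Genes with the most similar course were ranked by Pearson's r of log2(deposited value + 1) with the mean of the 10 members over 28 libraries, among 12376 tested genes with a symbol. The first were Smpx (0.95), Xirp2, Hfe2, Hhatl and Hrc (0.94 each), Casq2 (0.93), Mybphl (0.92), Ckm and Lrrc10 (0.91 each), Myh7 (0.90), Tnni3 (0.89) and Serpinf1 (0.88). Hrc is a histidine-rich calcium-binding protein of the reticulum, Mybphl a relative of myosin-binding protein C, and Serpinf1 the secreted pigment epithelium-derived factor. After removal of each group's mean the first were Tnni3 (0.89), Mybphl (0.88) and Hhatl and Smpx (0.87 each). Among the 45 pairs of members r was 0.81 to 0.98 (median 0.92), and 0.64 to 0.95 (median 0.83) with group means removed. All of these values include the difference between number series, and they are given as a description.

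Markers of other tissues were compared over the same series. Of 7 fat genes 6 were found, and their sum was 213 to 614 in series 12, 165 to 1159 in series 14, 165 to 470 in series 15 and 163 to 384 in series 18, all overlapping. Adipoq, the hormone of fat cells, was 5.53 to 174 in series 12, 7.89 to 165 in series 14, 1.01 to 14.7 in series 15 and 1.98 to 23.6 in series 18. Plin1, which coats fat droplets, had medians of 7.11 and 9.68 in series 12 and 14, and of 0 and 3.18 in series 15 and 18. Both were picked after their values were seen, and other fat genes did not take this order. Cidec had medians of 92.5, 77.2, 76.7 and 99.3, and Retn of 31.1, 141, 129 and 59.5, in series 12, 14, 15 and 18. Smooth muscle genes (8 of 11 found) summed to 19139 to 36500 in series 12, 15538 to 18064 in series 14, 13820 to 27037 in series 15 and 10304 to 15337 in series 18, so that series 12 lay above series 14 and 18. Skeletal muscle genes (12 of 18 found) summed to 639 to 2449, 278 to 1098, 390 to 880 and 362 to 480. Vein endothelium genes (5 of 6 found) summed to 18140 to 28804, 23753 to 39584, 18471 to 35864 and 20226 to 29744, all overlapping. Lung epithelium genes (8 of 10 found) summed to 722706 to 2169260, 377530 to 895523, 681140 to 1014372 and 969876 to 1271911. The part of depth, fat, smooth muscle or epithelium in the differences of the heart muscle genes was not tested.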

How the data were processed

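Poly(A) RNA of lung tissue was selected with oligo(dT) beads and sequenced as strand-specific dUTP libraries on an Illumina HiSeq, per the labels' protocols. The submitters' processing notes name CASAVA 1.8.0, BWA, bedtools 2.11, DESeq 1.8.3 and build rn4, without their roles, and per the file header genes are from Ensembl 67. The deposited signal is a read count per gene divided by 1 size factor per library. This was checked on the values, which gave whole reads within 0.1 read. Replicates differed by a chi-square of at least 15.3 per gene, so each library was counted as 1. Strand and multi-mapping settings are not given in the sources used here. Of 17002 genes 489 carry no name and 2786 a protein entry name.

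For 14908 genes the deposited value averaged 10 or more, and these were fitted as log2(value + 1) with limma 3.58.1 in R 4.3.3, with 1 mean per group, an intensity trend and a robust prior. The spread of a gene was estimated over all libraries of a fit. In the group comparisons an SE therefore also holds the spread of groups outside the comparison. Tests were two-sided and adjusted by Benjamini-Hochberg over all genes of a comparison, at 0.05. Differences on this scale understate changes of low genes. Alternatives were a pseudocount of 10, no filter, quantile normalization, fits of the groups compared, edgeR 4.0.16 on recovered reads with TMM scaling, the number series as a covariate, and leaving out libraries. Added after the values were seen were the fit within series 15, the series term over 28 libraries, and the member values under the covariate or without the 2 shallowest libraries. The procedure was also run on simulated reads that held no shift between number series. That run gives no error rate for data with such a shift.

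The members and gene lists were chosen with earlier results of these data known, so the members carry no p. Named genes were the members, the 4 most abundant of each role in the other heart muscle list, atrial and ventricular markers, the 2 most abundant of each marker list and the most similar genes, of which the text gives those described. Further genes were named after their values were seen: Xirp1, Hcn4, Adipoq, Plin1 and Ptger1. Some list genes were matched by a synonym, an allele-marked symbol or a protein entry name. Promoters come from a RefSeq table of build GRCr8. Counting error alone underlies the limits of 3 reads. Further steps ran in Python 3.11.15 with pandas 2.3.3, numpy 2.4.6 and matplotlib 3.10.9.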

Additional observations from a re-analysis of the deposited data

Results flagged for a closer look

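Variable minus constant ventilation pointed in opposite directions in uninjured and chronically injured lungs for 9 of the 10 members, with no overlap between the libraries in either comparison. On the log2(deposited value + 1) scale the uninjured difference minus the chronic difference was -13.30 for Myl7, -12.38 for Myh6, -10.69 for Mb, -10.00 for Actn2, -9.69 for Csrp3, -7.96 for Sln, -7.17 for Myoz2, -6.77 for Mybpc3 and -6.11 for Fabp3. Tnnt2 had the same signs, but its libraries overlapped in the uninjured comparison. The difference was not tested, since the genes were chosen on these values. The lower group was of series 15 in both comparisons. No library stood apart from its group by Dixon's criterion in any of 33 checks of groups of 4 or 5 libraries. Groups of 3 were not checked. The criterion looks for 1 library apart from the rest. It could not flag the split of acute_noisy, with summed values of 7907 and 2336 against 105.5 and 116.1. Library healthy_VCV 062 was not flagged either, though it was the lowest of its group for all 10 members. The checks do not show that the groups were uniform.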

How the results depend on the processing

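No paired analysis was possible because no replicate number occurs in more than 1 group. Of 1400 member differences under alternatives, 1359 moved by less than the spread and 38 moved further, 17 of them with the number series as a covariate. The other 3 reversed: with that covariate, chronic_noisy minus chronic_VCV was -0.07 for Tnnt2, -0.64 for Fabp3 and -0.05 for Sln. The sign itself changed in 31, these 3 included, and only in these 3 did the reported difference exceed 1 in size. A pseudocount of 10 moved 16, all toward 0. Counts of other heart muscle genes called are given for 1 direction each: higher in healthy_VCV minus control_blank and in the 3 comparisons that begin with a ventilated chronic group, and lower in the others. They moved as follows. In fits of the groups compared alone they were 9 in acute_noisy minus control_blank, 21 in healthy_noisy minus healthy_VCV, 0 in acute_noisy minus acute_VCV and 1 in chronic_noisy minus chronic_VCV. In the last comparison the count was also 1 with a pseudocount of 10, 1 with edgeR and 0 with the covariate. In healthy_noisy minus healthy_VCV it was 0 with the covariate and 0 within series 15. For series 15 minus series 14 it was 7 with all 28 libraries in the fit, and for control_chronic minus control_blank 10 without the 2 shallowest control_chronic libraries. Leaving out 1 library at a time gave 0 to 4 in acute_VCV minus control_blank, 6 to 8 in healthy_VCV minus control_blank, 12 to 15 in healthy_noisy minus control_blank, 9 to 17 in acute_noisy minus control_blank, 9 to 15 in control_chronic minus control_blank, 1 to 3 in chronic_VCV minus control_chronic, 5 to 11 in chronic_noisy minus control_chronic, 0 to 10 in healthy_noisy minus healthy_VCV, 0 to 15 in acute_noisy minus acute_VCV, 0 to 4 in chronic_noisy minus chronic_VCV and 0 to 13 in series 15 minus series 14. Such fits have fewer libraries, and the cause was not tested otherwise. Shares of all genes called are not given for the alternative fits. The counts therefore show only how the calls moved, and cannot be set beside the shares of the reported fits. The covariate was applied to 3 comparisons only, and the fit of the groups alone is the reported one for the number series. Members at 3 reads or fewer limit what can be said of series 15 and 18.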
